A study of Mus musculus with 20 samples.

Results

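The MHC-II-high B-MF are the B-cell-derived macrophages (B-MF) of the cultures whose summed corrected count of H2-Aa, H2-Ab1 and H2-Eb1 was 20 or more. These genes encode the polymorphic chains of the mouse MHC class II molecules I-A and I-E. The rule selected 240 of 10563 B-MF cells, 139 of 5237 in replicate 1 and 101 of 5326 in replicate 2. The 10323 B-MF cells under 20 served as the comparison, always within the same library. The cells were selected on measured class II counts, so the levels of the 3 genes are given as a description and without a test.

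MHC class II molecules present peptides from ingested material to CD4+ T cells. B cells, dendritic cells and activated macrophages carry them, and in resting macrophages the genes are largely silent. The coactivator CIITA, which binds a complex of factors on the X and Y boxes of their promoters, sets the level of class II genes, and interferon-gamma is its best known inducer in macrophages. The invariant chain (Cd74) guards the groove of new class II molecules, cathepsins degrade it, and H2-DM exchanges its last fragment for a peptide.

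The single-cell libraries comprised B-MF replicates 1 and 2 and monocyte-derived macrophages (Mo-MF) replicates 1 and 2. B cells or monocytes had been sorted from the bone marrow of naive young female mice and cultured in medium conditioned by 4T1.2 mouse breast cancer cells (4T1.2-CM, at 50%) over 7 days, and the adherent cells were collected. The conditioned medium is thus common to all 4 libraries, and no culture without it entered the comparison. The sources used here do not give the strain of each culture or say that replicates came from separate animals. The p-values therefore speak only for these libraries, through a fitted error described below. In addition, 12 ATAC-seq peak lists came from freshly isolated CSF1R+ and CSF1R- cells of bone marrow and spleen, with 3 libraries a group. The labels call these cells macrophages, and the methods describe them as B-cell precursors of naive mice.

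To show a regulatory sequence that several class II genes share, the stretches around the core of the Y box, TGATTGG, were taken from the RefSeq promoters (GRCm38.p6). The capitals mark that core, all stretches lie before the RefSeq transcription start, and each is printed 5′ to 3′ on the strand of its gene.
H2-Aa, minus strand, chr17:34287844-34287928: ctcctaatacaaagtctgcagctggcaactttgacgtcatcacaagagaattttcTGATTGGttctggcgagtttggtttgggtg
H2-Eb1, plus strand, chr17:34305751-34305835: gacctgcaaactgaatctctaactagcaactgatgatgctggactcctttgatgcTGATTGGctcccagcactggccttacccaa
H2-DMb2, plus strand, chr17:34145102-34145186: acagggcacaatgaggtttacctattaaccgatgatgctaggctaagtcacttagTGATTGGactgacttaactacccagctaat
The core began 50 bases before the start of H2-Aa, 61 before that of H2-Eb1, 63 before that of H2-DMb1 and 92 before that of H2-DMb2. The GENCODE annotation, used for the peaks described below, places the starts of H2-DMb1 (chr17:34153072) and H2-DMb2 (chr17:34143307) further upstream, so by it both cores lie inside the gene, that of H2-DMb1 in a stretch that overlaps an exon. In the 250 bases before the start, TGATTGG or its reverse complement CCAATCA was found in 7.23% of 32851 RefSeq promoters. It was not found in the same window of H2-DMa, Tmem176a, Tmem176b, Ppbp, Plbd1 or Ifitm1, genes described below. No promoter of H2-Ab1, Cd74 or Ciita was searched. A match is a description of letters and not of binding.

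Class II counts were absent from most B-MF and spread over a long tail in the rest. A count of 0 was found in 85.7% of the other B-MF of replicate 1 and in 86.3% of those of replicate 2. The selected cells had a median of 47 class II counts in replicate 1 and 60 in replicate 2, with maxima of 839 and 718. They were 2.65% (95% exact binomial interval 2.24 to 3.13) of replicate 1 and 1.90% (1.55 to 2.30) of replicate 2, and the intervals cover counting error only. Few as they were, they held 85.1% and 82.8% of all class II counts of their libraries.

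**Figure D1:**
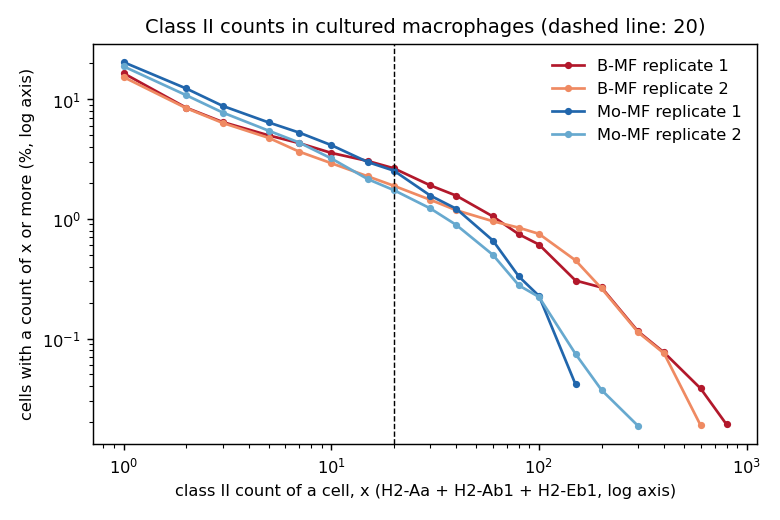
Percentage of cells (log axis) whose class II count reached the value on the x axis (log axis), for each of the 4 cultured libraries, with the dashed line at 20. At 20 counts the lines lie between 1.74% and 2.65%, and the B-MF lines reach further to the right, to 839 and 718 counts against 162 and 358 in Mo-MF.

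The same rule picked out 123 of 4846 Mo-MF cells in replicate 1 (2.54%) and 94 of 5389 in replicate 2 (1.74%). These shares overlapped with those of B-MF. The upper end differed more: 23% and 39.6% of the MHC-II-high B-MF had 100 class II counts or more, against 8.94% and 12.8% of the Mo-MF that met the rule. The median count of the latter was 38 and 40.

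The 3 genes were detected together. All 3 had a count in 138 of 139 selected cells of replicate 1 and in 101 of 101 of replicate 2. H2-Eb1, the I-E beta chain, averaged 23.3 and 32.0 corrected counts per selected cell and 0.0679 and 0.0647 per other cell. H2-Aa, the I-A alpha chain, averaged 33.0 and 41.3 against 0.146 and 0.147. H2-Ab1, the I-A beta chain, averaged 28.5 and 34.4 against 0.192 and 0.221. H2-Eb1 made up 27.5% and 29.7% of the sum in the selected B-MF, whereas its share in the Mo-MF meeting the rule was 19.8% and 22.0%.

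The threshold cut through a continuous range. The 21 and 20 cells just outside it, with 15 to 19 class II counts, averaged 32.5 and 31.5 Cd74 counts. The 20 and 18 cells just inside, with 20 to 24, averaged 49.6 and 40.6. Ifitm1 averaged 17.0 and 6.45 just outside and 16.1 and 11.9 just inside.

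Depth was alike in both classes. Their median total was 18907 and 18422 corrected counts, against 19408 and 18350 in the other cells, and their median number of detected genes was 3772 and 3482 against 3878 and 3397. The correction had made the totals alike. Cell barcodes shared between libraries numbered 4 to 14 per pair, and 1 barcode of a selected cell of replicate 1 recurred in each Mo-MF library.

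Macrophage markers were read as a check of the label, and they were mixed. The markers of the sort before loading are not stated for these libraries. If F4/80 (Adgre1) and CD11b (Itgam) were among them, their presence is no independent check. Csf1r, the receptor of the macrophage growth factor M-CSF, averaged 11.6 and 11.7 counts against 11 and 10.8 in the other cells. Its log2 difference was 0.09 ± 0.05 (SE), with a limma adjusted p of 0.357. Adgre1 (F4/80) was lower, at 5.93 and 5.23 against 6.66 and 6.60. Of the 10 macrophage markers, 4 were higher (C1qa, C1qb, Fcgr1, Itgam), 3 were lower (Adgre1, Cd68, Mrc1) and 3 did not pass the test.

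Beyond the 3 genes of the rule, 8607 genes were tested with limma on log2 of the mean corrected count per cell plus 0.1, with the library as a block. Each error was pooled over the B-MF and Mo-MF libraries, with 2 residual degrees of freedom, and drawn towards a trend over all genes worth 17.5. It is thus a fitted error and not the spread between the B-MF libraries alone. Ppbp, with a fitted error of 0.16, differed by 2.781 in B-MF replicate 1 and 3.575 in replicate 2. At an adjusted p of at most 0.05, 491 genes (5.7% of those tested) were higher in MHC-II-high B-MF and 572 (6.65%) were lower. Cd74, Ppbp, Tmem176a and Plbd1 had been named as markers with these values in view, so their differences are no independent evidence. The median difference over all genes tested was -0.0022 on the log2 scale.

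Of the 17 listed members of the class II pathway, 13 were in the table and 11 passed the filter on low means, of which 8 were higher and none was lower. Ciita, H2-DMb1 and H2-DMb2 passed that filter only through the cells meeting the rule, where they are high, so their presence among the 8 was fixed by the filter. The other 5 were Cd74, H2-DMa, Ctss, Lgmn and March1. Cd74 and the H2-DM genes are known to be regulated by CIITA together with the genes of the rule, so their direction is not independent of the selection. Cd74, the invariant chain, averaged 114 and 132 counts in the selected cells and 1.15 and 1.18 in the others, a log2 difference of 6.60 ± 0.05. The selected cells lay far above the others in both libraries, and in every selected cell Cd74 had a count.

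H2-DMb1, the beta chain of the peptide exchanger H2-DM, averaged 1.48 and 1.73 against 0.0102 and 0.00938. H2-DMb2, its second beta chain gene, averaged 0.647 and 0.713 against 0.0382 and 0.0321. These genes are near-identical copies, between which reads could have been split, so their separate values are uncertain. H2-DMa, the alpha chain, averaged 4.34 and 4.45 against 0.901 and 0.881, a log2 difference of 2.18 ± 0.07. It thus had a measurable level in the other cells, whereas both beta chain genes were close to 0 there.

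Ciita, the class II transactivator, averaged 0.496 and 0.564 in the selected cells and 0.011 and 0.00919 in the others. The Mo-MF meeting the rule had 0.545 and 0.628, and the other Mo-MF 0.0203 and 0.0225. These levels are a description, since the filter let Ciita in through the cells where it is high. A count of Ciita was found in 26.6% and 31.7% of the selected cells and in 0.745% and 0.689% of the others. After every cell was thinned to 15000 counts, the shares were 24.5% and 27.7% against 0.608% and 0.632%. Rfxank and Rfxap, subunits of a factor that CIITA binds, did not pass the test, and Rfx5, another subunit, was under the filter. Rfxank had a log2 difference of 0.14 ± 0.16 (adjusted p = 0.694) and Rfxap one of 0.11 ± 0.12 (adjusted p = 0.678).

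Proteases were divided. Ctsh, the aminopeptidase cathepsin H, was 6.78 and 7.49 against 1.82 and 1.77 (log2 difference 1.93 ± 0.06). Ctsc, cathepsin C, was 13.1 and 13.9 against 5.38 and 5.12. Ctss, the cathepsin that degrades the invariant chain in professional antigen-presenting cells, was higher by a log2 of 0.34 ± 0.04. Ctsl, Ctsd and Ctsa were lower, with Ctsl at 93.0 and 82.3 against 129 and 127. March1, the ubiquitin ligase that sends class II molecules for degradation, was also higher, by 0.56 ± 0.09.

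Genes of the class I pathway moved in the same direction by small amounts. Of 18 members, 12 were higher and none was lower (median log2 difference 0.28). The interferon-inducible proteasome subunits led them: Psmb9 by 0.55 ± 0.07 and Psmb8 by 0.53 ± 0.05. B2m, the light chain of class I, rose by 0.22 ± 0.04. Nlrc5, the class I transactivator, had a difference of -0.08 ± 0.16 (adjusted p = 0.837). Without B-MF replicate 2 the number higher was 6, and without the intensity trend in limma it was 2.

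Interferon-response genes showed a modest difference. Among the 15 tested genes of the interferon-gamma response, 6 were higher and none was lower (median 0.34), with Gbp7 at 1.12 and 1.01 against 0.592 and 0.557. Irf1 did not pass the test (0.27 ± 0.12, adjusted p = 0.189). Without B-MF replicate 2, 3 of these genes were higher, and without the trend 2 were. Among 14 genes of the type I response, 6 were higher (Ifit1, Ifit2, Ifit3, Irf7, Isg15, Ifi44) and none was lower.

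Of the costimulatory and checkpoint genes, 2 of the 6 tested were higher. Cd86, which gives T cells their second signal, was 1.57 and 1.66 against 0.746 and 0.652 (log2 difference 1.10 ± 0.12), and Cd40 was 0.209 and 0.158 against 0.102 and 0.0685. Cd274 (PD-L1) was 1.07 in replicate 1 and 0.693 in replicate 2, on either side of the 0.906 of the other cells in both.

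**Figure D2:**
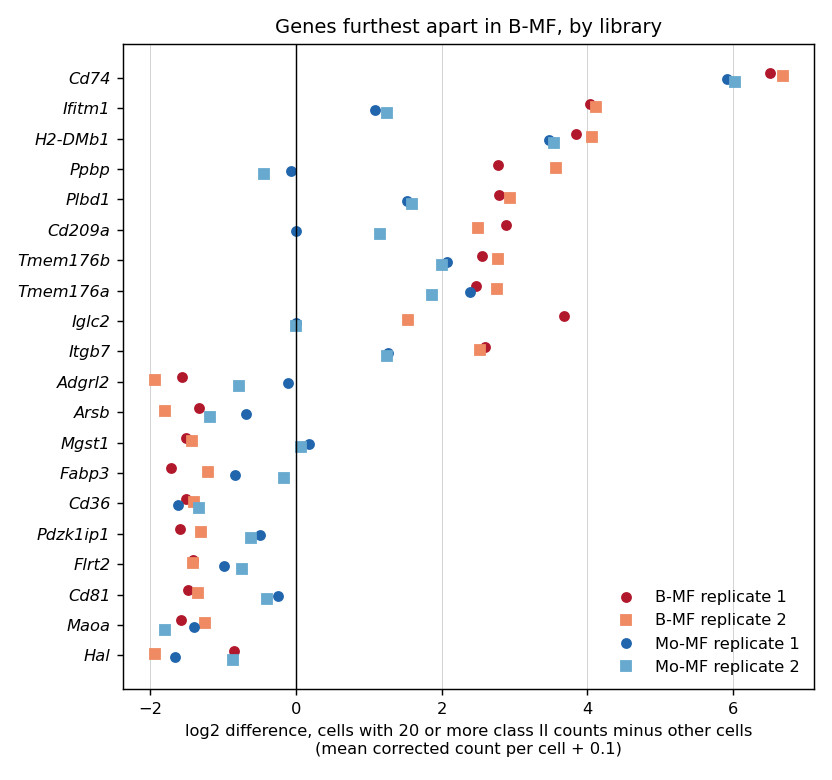
Log2 difference between cells with 20 or more class II counts and other cells (mean corrected count per cell plus 0.1), for the 10 genes furthest apart in each direction in B-MF, with 1 point per library. Cd74 lies beyond 5.9 in all 4 libraries, Ppbp is above 2.7 in B-MF and below 0 in Mo-MF, and Mgst1 is below -1.4 in B-MF and near 0 in Mo-MF.

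Outside the class II pathway, the largest difference belonged to Ifitm1, which encodes a small interferon-induced membrane protein. It averaged 35.7 and 31.8 counts in the selected cells and 2.08 and 1.74 in the others, a log2 difference of 4.08 ± 0.05. The values were uneven within the class: the median was 6 and 8 counts, the highest cell had 411 and 336, and the 5 highest cells of each library held 32.1% and 39% of the counts. A count was found in 71.9% and 80.2% of the selected cells and in 22.5% and 19.2% of the others.

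Tmem176a and Tmem176b, neighbouring genes for membrane proteins of the MS4A superfamily that are found in dendritic cells, were higher together. Tmem176a averaged 5.76 and 5.66 against 0.955 and 0.751 and Tmem176b 7.03 and 7.14 against 1.11 and 0.955. With them, all 8 members measured of the Tmem176 and Ms4a group were higher, down to Ms4a6d at a log2 difference of 0.16 ± 0.05. Plbd1, a lysosomal phospholipase B-like protein, averaged 2.55 and 2.54 against 0.284 and 0.243 (2.86 ± 0.11).

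Ppbp, the precursor of the neutrophil attractant CXCL7, averaged 3.24 and 5.19 against 0.385 and 0.344 (3.18 ± 0.16). It had a count in only 34.5% and 39.6% of the selected cells, and 5 cells of each library held 60.7% and 51.9% of its counts. Ppbp is abundant in platelets, and of the 6 platelet markers in the table none passed the filter on low levels: their summed mean was 0.0216 and 0.0198 counts per selected cell and 0.0671 and 0.0582 per other cell.

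Itgb7, the integrin beta-7 chain, was 0.978 and 0.891 against 0.0783 and 0.0722. Jaml, a junctional adhesion molecule of leukocytes that was also on the list of shared dendritic cell markers, was 2.94 and 3.29 against 0.858 and 0.768. Ccr2, the receptor that monocytes use to leave the bone marrow, was 0.237 and 0.535 against 0.0394 and 0.0255 (log2 difference 1.81 ± 0.18). Few selected cells held it: Ccr2 had a count in 2.27%, 12.7%, 4.44% and 0% of sub-clusters 1, 2, 3 and 4 described below. It was 1 of 3 higher genes among 7 monocyte markers, of which none was lower. The others were Vcan (0.367 and 0.129 against 0.101 and 0.0685) and Plac8 (0.0863 and 0.109 against 0.0273 and 0.0245), and Ly6c2 was at 0 in the selected and the other B-MF of both replicates.

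The chains of C1q, which starts the classical complement cascade and marks mature tissue macrophages, were all higher. C1qa was 54.1 and 60.2 against 20.9 and 19.5 (1.49 ± 0.12), C1qb 59.6 and 61.9 against 27.1 and 26.0, and C1qc 60.5 and 62.2 against 31.6 and 30.4. All 3 were higher in Mo-MF as well, and the difference between the cultures did not pass the test for any of them. Apoe, the lipid carrier, was 228 and 278 against 144 and 136.

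Of 17 chemokines measured, 12 were higher, none was lower and 5 did not pass the test, with a median log2 difference of 0.52 and a lowest of -0.22. Ccl2, which recruits monocytes, was 15.9 and 18.6 against 9.64 and 9.02. Cxcl2, which recruits neutrophils, was 4.61 and 5.12 against 2.41 and 1.89, and Pf4, the platelet factor, 218 and 228 against 141 and 138. Ccl5 needs care, since its counts came from 5 cells of replicate 1 and 2 cells of replicate 2.

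Genes on the list for lipid handling went the other way. The list also held Spp1, Gpnmb and Lgals3, which are not lipid enzymes, carriers or receptors and were among the lower genes. Of 12 measured, 9 were lower and 1, Apoe, was higher (median log2 difference -0.58). Cd36, the scavenger receptor for oxidized lipoproteins and fatty acids, was 1.53 and 1.77 against 4.55 and 4.82 (-1.45 ± 0.07). Lpl, lipoprotein lipase, was 7.82 and 6.04 against 17.7 and 17.7. Fabp4, a fatty acid carrier, was 2.88 and 2.18 against 6.23 and 6.12. Spp1 (osteopontin) was 41.8 and 35.6 against 89.0 and 87.1, and Trem2, a lipid-sensing receptor, 28.8 and 29.5 against 47.3 and 47.1.

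The 10 lowest genes by the naming rule also included the lysosomal sulfatase Arsb (0.180 and 0.0891 against 0.607 and 0.561), the microsomal glutathione transferase Mgst1 (1.40 and 1.45 against 4.18 and 4.05) and the fatty acid carrier Fabp3 (0.288 and 0.386 against 1.17 and 1.02). Cd81, a tetraspanin that many cell types carry, was 0.633 and 0.614 against 1.95 and 1.72. The remaining members were the latrophilin Adgrl2, Pdzk1ip1, the adhesion protein Flrt2, the monoamine oxidase Maoa and the histidine ammonia-lyase Hal, with log2 differences between -1.76 and -1.40. The rule required the same sign in both B-MF libraries. Without the filter on low means Adgrl2, Arsb, Fabp3, Maoa and Hal no longer passed the test. Hal was -0.85 without B-MF replicate 2 and -1.94 without replicate 1.

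Of 13 sterol synthesis genes tested 1 was lower, Msmo1, and of 16 S-phase genes 1 was lower, Pcna, and none higher. Immediate-early genes were divided: of 14, 4 were higher (Ier3, Egr3, Btg2, Junb) and 2 lower (Nr4a1, Atf3). Ier3, an early response gene, was 13.7 and 12.6 against 7.63 and 7.06, and Atf3, a stress-induced factor, 3.63 and 3.74 against 4.81 and 4.97. Egr1, an immediate-early transcription factor, was 8.05 and 8.09 against 7.38 and 6.95 (0.17 ± 0.08, adjusted p = 0.183). Of 13 mitochondrially encoded genes 8 were lower, by at most 0.42 on the log2 scale. The part of these mitochondrial genes in the other results was not tested.

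**Figure D3:**
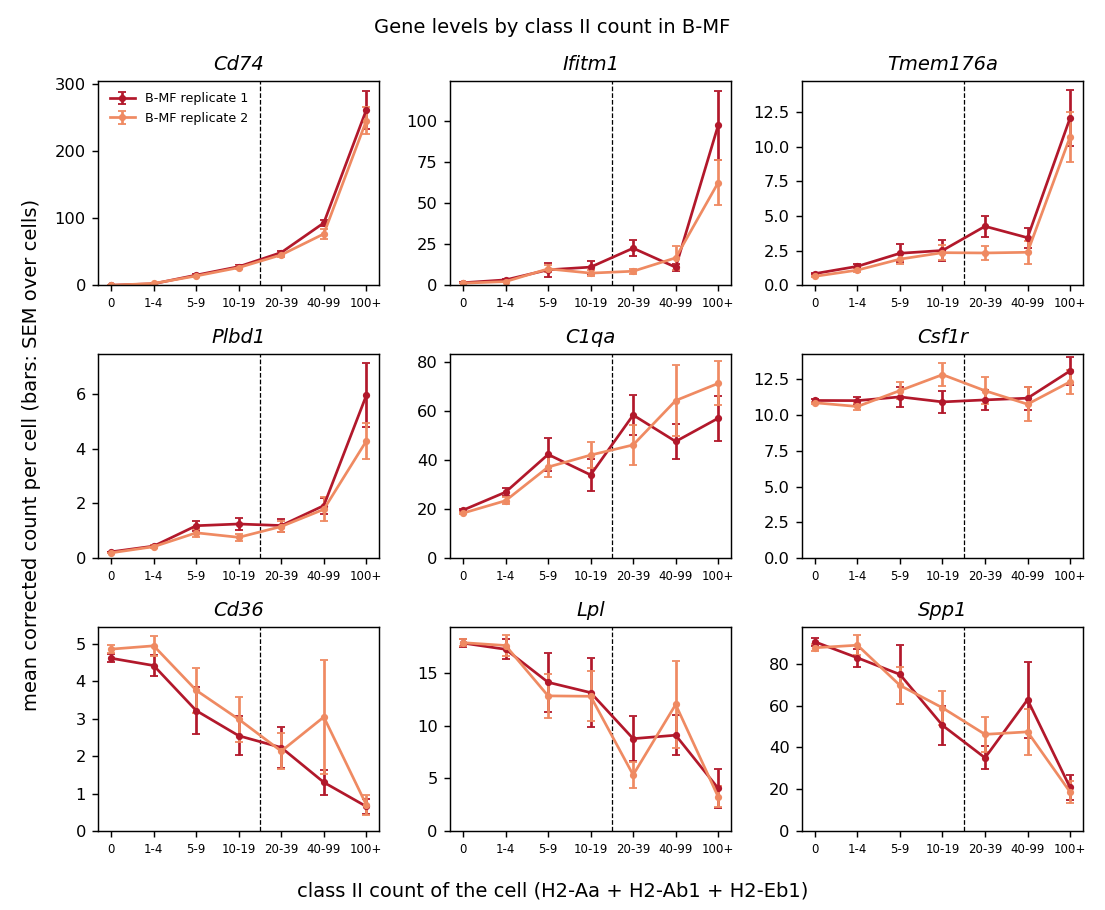
Mean corrected count per cell (y axis, bars are SEM over cells) of 9 genes by the class II count of the cell (x axis, 7 bins), for B-MF replicates 1 and 2, with the dashed line at the threshold of 20. Cd74, Ifitm1, Tmem176a and Plbd1 are highest in the cells with 100 or more class II counts, Cd36, Lpl and Spp1 are lowest there, and Csf1r stays between 10.6 and 13.1.

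Read across the class II range, these genes changed in steps of different shape. In replicate 1, Cd74 went from 0.407 in cells without class II counts to 28.1 at 10 to 19 and 262 at 100 or more. Cd36 went from 4.61 to 2.54 and 0.656 over the same bins. Spp1 did not fall steadily: it was 90.5 at 0, 50.5 at 10 to 19, 35.0 at 20 to 39, 62.8 at 40 to 99 and 20.8 at 100 or more. In replicate 2 the bin of 40 to 99, with 23 cells, also stood above the bin before it for Cd36 (3.04 against 2.13) and Lpl (12 against 5.34). In replicate 1 C1qa stood at 42.3 in the 75 cells with 5 to 9 class II counts, against 19.6 in those with 0. It was 33.9 at 10 to 19 and 57.0 in those with 100 or more. Plbd1 and Tmem176a were highest at the top but also rose under the threshold. Plbd1 was 0.235 at 0, 1.19 at 5 to 9, 1.25 at 10 to 19, 1.19 at 20 to 39 and 5.94 at 100 or more. Tmem176a was 0.856 at 0, 2.32 at 5 to 9, 4.26 at 20 to 39 and 12.1 at 100 or more. In replicate 2 Cd74 was 0.345, 26.6 and 246 in the bins given for it, and Plbd1 was 0.199, 0.929, 0.764, 1.16 and 4.28. C1qa there was 18.4 at 0, 37.2 at 5 to 9, 42.0 at 10 to 19 and 64.2 at 40 to 99. Cells within a bin share a library, and these means are given as a description.

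Markers of other cell types that carry class II were read in the same cells. The dendritic cell lists were mixed. Of 2 shared markers tested, Jaml was higher, and the summed level of that list was 3.37 and 3.56 against 1.19 and 1.07. Of 5 markers of type 1 dendritic cells, Batf3 was higher (0.360 and 0.347 against 0.213 and 0.185) and Cadm1 lower (3.37 and 2.66 against 5.51 and 5.49), and the summed level was 5.22 and 4.34 against 6.99 and 6.81. Of 3 markers of type 2 dendritic cells that passed the filter, Kmo was higher (0.302 and 0.248 against 0.126 and 0.112). Cd209a was also higher but had passed the filter only through the selected B-MF, so its call was fixed. The list had a summed level of 1.37 and 0.990 against 0.479 and 0.386. Ccr7 and Clec9a were at 0 in all selected cells. The part of these markers in the other results was tested only by leaving cells out, as follows. Zbtb46 had a count in 1.44% and 1.98% of them, against 0.334% and 0.287% of the other cells. Cd209a, a lectin of type 2 dendritic cells and of monocyte-derived cells, averaged 0.640 and 0.465 against 0.000589 and 0. It came from 6 and 9 selected cells, 14 of which had 100 or more class II counts, and from 3 other B-MF cells. These 15 cells had Csf1r counts between 2 and 20 and Adgre1 counts between 2 and 10. Without every cell that had a count of Cd209a or Zbtb46, 397 genes were higher and 503 lower. The log2 difference of Ifitm1 was then 3.46 in place of 4.08, and that of Itgb7 1.96 in place of 2.56. That comparison was chosen after seeing the data.

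Of the 14 B cell genes listed, 13 were in the table and 4 passed the filter, of which Cd79b and Ighm were higher. The summed level of the list was 3.94 and 1.54 per selected cell and 0.603 and 0.606 per other cell. This level was not spread over the class. The 4 cells of replicate 1 and the 1 cell of replicate 2 with 3 or more B cell genes held 83.5% of the counts, and they had between 45 and 135 class II counts. Their median C1qa count was 3 and their median Csf1r count 3, far under the class averages given above. Iglc2, the lambda light chain constant gene and among the 10 highest genes by rule, averaged 1.34 and 0.267 but had counts in 3 and 1 cells, so it describes those 4 cells. Without cells with 2 or more B cell genes, 453 genes were higher and 518 lower.

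Lists of T and NK cells, mast cells and basophils, and fibroblasts had summed levels of at most 0.0099 counts per selected cell. Of 10 neutrophil genes, 2 were higher in the selected B-MF, Mmp8 (5.4 and 6.03 against 3.73 and 3.79) and Csf3r (1.10 and 0.980 against 0.695 and 0.654), and 2 were lower, S100a8 and S100a9. Without the cells that had 4 or more neutrophil genes, 5 and 2 of the other B-MF, S100a8 differed by -0.41 (limma adjusted p = 0.144) and S100a9 by 0.03 (adjusted p = 0.963) on the log2 scale. Ly6g, Camp and Ngp were at 0 there. No selected B-MF had 4 or more of the 10 neutrophil genes, whereas 19.5% to 26.8% of the Mo-MF, within and outside the rule, did.

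The 240 cells fell into 4 sub-clusters when they were clustered without the 3 genes of the rule, and both replicates contributed to each. Sub-cluster 1, with 53 and 35 cells, was led by Ube2c, Birc5, Mki67 and Top2a, genes of dividing cells. They had counts in 26.14%, 29.55%, 30.68% and 32.95% of its cells, so each was absent from most of them. Its median number of detected genes was 4489.5, against 3382, 3325 and 3076.5 in sub-clusters 2, 3 and 4. Sub-cluster 2, with 39 and 40 cells, was led by Kynu, Ccl12, Ifit2, Tmem176b and Tmem176a. Sub-cluster 3, with 31 and 14 cells, was led by Mfge8, Mmp9 and Dusp5, and sub-cluster 4, with 16 and 12 cells, by Ighm and Zbtb20, with Malat1 also among its 10 leading genes. Ighm led by level and not by the share of cells: it had a count in 25% of sub-cluster 4. The share was 26.1%, 22.8% and 22.2% in sub-clusters 1, 2 and 3. The leading genes define the sub-clusters and are not a finding. The number of sub-clusters was 2 at a resolution of 0.25 and 8 at 1. At 0.25 only 12 cells, all of sub-cluster 1, were set apart from the rest.

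**Figure D4:**
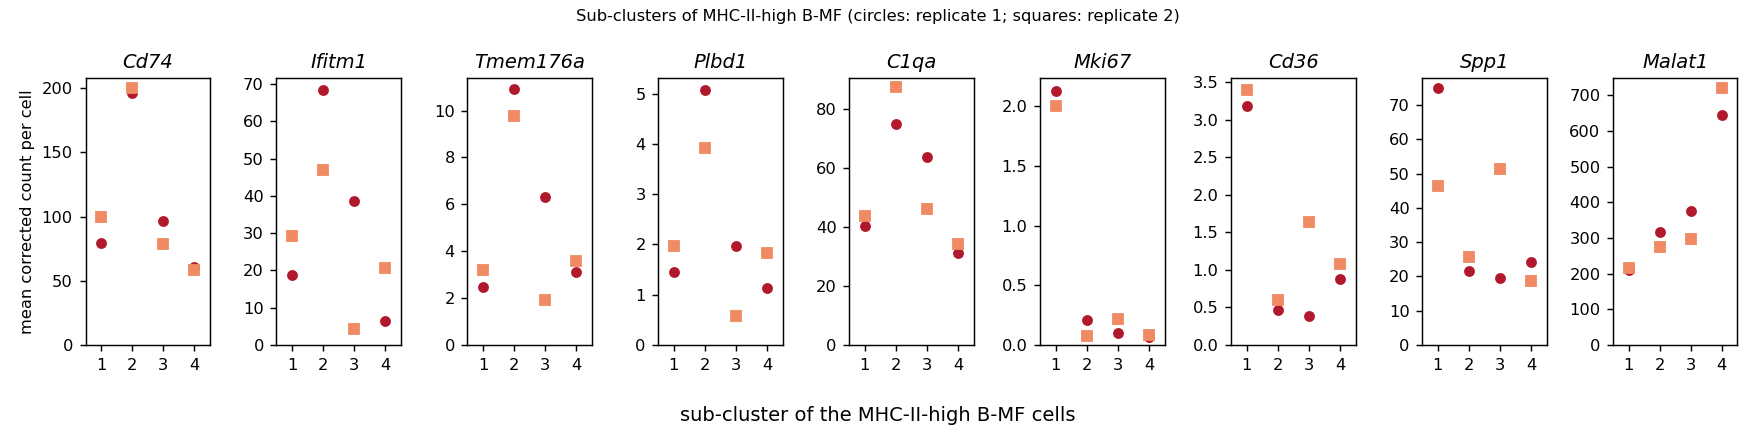
Mean corrected count per cell (y axis, own scale per gene) of 9 genes in the 4 sub-clusters (x axis) of the MHC-II-high B-MF, with circles for replicate 1 and squares for replicate 2. Sub-cluster 2 has the highest Cd74 (196 and 201), Ifitm1, Tmem176a and Plbd1, sub-cluster 1 the highest Mki67, and sub-cluster 4 the highest Malat1 (646 and 722).

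The highest class II counts sat in sub-cluster 2, whose median was 111, against 43, 45 and 34.5 in the others. Its cells averaged 196 and 201 Cd74 counts, 68.4 and 47.1 Ifitm1 counts and 10.9 and 9.75 Tmem176a counts. Cd209a averaged 1.57 there and 0.0745 in the remaining selected cells. The cells of sub-cluster 1 had the highest Mki67 level of the 4 (2.13 and 2), and they had more Lpl (16.6 and 10.6) and Cd36 (3.19 and 3.4) than sub-cluster 2 (Lpl 1.28 and 2.73, Cd36 0.462 and 0.600). In sub-cluster 3 the replicates parted, with Ifitm1 at 38.8 and 4.36, so its mean rests on replicate 1. In sub-cluster 4 the B-cell receptor component Cd79a averaged 2.75 counts, all from 14.3% of its cells, and it was at 0 in the other sub-clusters.

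The same comparison was made in the Mo-MF libraries. In Mo-MF, 627 genes (7.28%) were higher in the cells meeting the rule and 738 (8.57%) were lower. The signed log2 difference was itself tested between the cultures, as B-MF minus Mo-MF. It passed the test as positive for 264 genes (3.07%) and as negative for 230 (2.67%). The sign does not say in which culture the difference was larger in size. The cultures differ in cell of origin and in library, and these cannot be told apart.

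**Figure D5:**
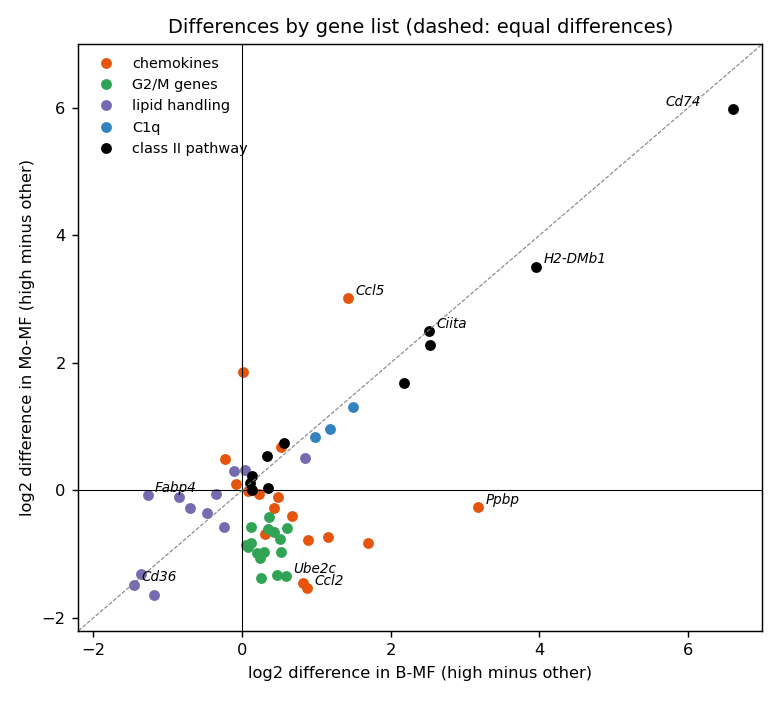
Log2 difference between cells with 20 or more class II counts and other cells in B-MF (x axis) and in Mo-MF (y axis) for the tested members of 5 gene lists, with the dashed line where the differences are equal. Cd74 and H2-DMa lie below the line (by 0.62 and 0.50), Ciita lies on it, most chemokines and all G2/M genes lie below it, and Ppbp has 3.18 in B-MF and -0.26 in Mo-MF.

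Several leading genes had the same direction in both cultures. Cd74 differed by 6.60 in B-MF and 5.98 in Mo-MF, Tmem176b by 2.67 and 2.05, Cd36 by -1.45 and -1.48, and Lpl by -1.35 and -1.31. The difference between the cultures passed the test for 3 class II pathway genes, Cd74 (0.62 ± 0.08), H2-DMa (0.50 ± 0.10) and Lgmn (0.31 ± 0.07), and for Tmem176b (0.62 ± 0.11). It did not for Cd36 (0.02 ± 0.10, adjusted p = 0.940). No test between the cultures matched cells for class II counts, which were higher in the selected B-MF. With 20 to 39 such counts, Cd74 stood at 49.1 and 45.6 (B-MF replicates) or 37.7 and 33.4 (Mo-MF replicates). Cells outside the rule held 1.15 and 1.18 (B-MF) or 0.871 and 0.825 (Mo-MF). Whether a difference between the cultures remains at equal class II counts was not tested.

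Chemokines differed between the cultures. Of the 17, the signed difference between the cultures passed the test as positive for 10 and as negative for none. The lowest value on the list was -1.84, which did not pass the test. In Mo-MF, 8 of them were lower in the cells meeting the rule, among them Ccl2 (1.94 and 1.96 against 5.92 and 5.78) and Ccl7 (1.31 and 1.99 against 4.63 and 4.53). Ccl2 thus went in opposite directions, by 0.88 in B-MF and -1.54 in Mo-MF on the log2 scale, a difference between the cultures of 2.41 ± 0.09. That of Ccl8 was 1.66 ± 0.10 and that of Cxcl3 2.53 ± 0.23, also with opposite signs. For Ppbp it was 3.43 ± 0.23, since in Mo-MF it was 0.0813 and 0.0106 against 0.0900 and 0.0506. Without cells that had 4 or more neutrophil genes, an alternative added after seeing the data, the values were 2.48 for Ccl2, 1.82 for Ccl8, 1.47 for Cxcl3 and 3.32 for Ppbp. Cxcl3 then differed by 1.70 within B-MF, above its 1.47 between the cultures, so it no longer had the opposite sign in Mo-MF. In that fit 9 of 16 chemokines passed the test as positive and 2 as negative, Ccl5 (-1.95, limma adjusted p = 0.0201) and Ccl6 (-0.24, adjusted p = 0.0388).

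Ifitm1 was higher in both cultures but 2.91 ± 0.08 more so in B-MF, in Mo-MF being 13.8 and 13.6 against 6.47 and 5.63. Ctsh (1.27 ± 0.09) and Plbd1 (1.31 ± 0.15) were also higher in both and more so in B-MF. In the opposite direction, the difference of Mgst1 was -1.60 ± 0.09 between the cultures, since in Mo-MF it was 5.97 and 5.34 against 5.26 and 5.06. Fabp4 followed it, at 15 and 14.0 against 14.9 and 15.7 in Mo-MF (difference between the cultures -1.19 ± 0.10). Saa3, an acute-phase apolipoprotein, was higher in both, by 0.95 in B-MF and 2.49 in Mo-MF. Slpi, Ephx1 and Maged1 were lower in B-MF and higher in Mo-MF.

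Igkc, Ngp and Camp were among the 5 genes named for the most positive differences between the cultures. Ngp and Camp, neutrophil granule genes, were at 0 in all B-MF classes, and their contrast came from the Mo-MF, where Ngp was 2.38 and 0.0532 against 8.32 and 5.30. Igkc, the kappa light chain, had counts in 1.44% and 0.990% of the selected B-MF. In Mo-MF the other cells of replicate 1 averaged 3.34, with 98.9% of the counts from 1 cell, against 0.0159 in replicate 2.

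Genes of the G2/M phase also differed between the cultures. In B-MF 5 of 16 were higher in the selected cells (Birc5, Ccnb1, Cdc20, Nusap1, Ube2c), and in Mo-MF 15 were lower. The signed difference between the cultures passed the test as positive for 14 of the 16, among them Top2a. Top2a was 0.691 and 0.812 against 0.679 and 0.549 in B-MF, whereas the Mo-MF had 0.171 and 0.149 against 0.539 and 0.606. The 5 calls within B-MF became 2 without replicate 1 and 0 without replicate 2. With the most strongly cycling cells left out, 1 gene of the list passed the filter and was not higher in B-MF, and 398 genes in all were higher and 588 lower.

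The chromatin at class II genes was read in the 12 ATAC-seq lists. Every class II gene examined had a called peak within 1000 bases of an annotated start in all 12 lists, in CSF1R+ as in CSF1R- cells. Ciita was read at several starts, not all with a peak, and the other genes only at the gene start. The share of all gene starts with a peak in every list was not counted. The peaks are therefore not shown to be particular to class II genes, and Plbd1, outside the pathway, also had one in all 12. At H2-Ab1 the fold enrichment was 14.7 to 17.5 in BM CSF1R+, 17.0 to 19.1 in BM CSF1R-, 9.70 to 10.7 in spleen CSF1R+ and 9.25 to 10.3 in spleen CSF1R-. H2-Aa had 12.4 to 13.9 and 12.9 to 15.6 in bone marrow and 7.59 to 7.93 and 7.03 to 8.17 in spleen. H2-Eb1 had 10.6 to 11.1 and 10.6 to 14.3, then 7.32 to 7.5 and 6.56 to 7.39. The ranges of CSF1R+ and CSF1R- cells overlapped at all 3 genes in the spleen and at H2-Aa, H2-Ab1 and H2-Eb1 in the bone marrow, and those of marrow and spleen did not.

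H2-DMa, H2-DMb1, H2-DMb2 and Cd74 also had a peak in 12 of 12 lists, with 5.68 to 7.77 fold at Cd74. At the GENCODE starts of H2-DMa and H2-DMb1 the order of the tissues was the reverse of that at the genes of the rule. The H2-DMa start used here, chr17:34119541, lies upstream of the RefSeq promoters searched for TGATTGG (chr17:34122582-34122881 and chr17:34125268-34125567). Peaks at those promoters were not read. H2-DMa had 6.01 to 6.92 fold in bone marrow and 7.01 to 8.30 in spleen, and H2-DMb1 8.73 to 15.3 and 15.9 to 17.4. For Ciita, the annotated start at chr16:10480059 had no peak in any list, whereas the start at chr16:10488279 had one in all 12, with 9.63 to 11.2 fold in bone marrow and 6.20 to 13.5 fold in spleen. The starts at chr16:10489746 to chr16:10489783 had a peak in 11 of 12. Positions are those of the GENCODE annotation of GRCm38, which is mm10. Ppbp had no peak in any list. Tmem176a and Tmem176b had one in 6, of which 5 were of bone marrow, and Plbd1 had one in 12. No test was run on these values, and no list was made from the cultured cells.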

How the data were processed

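Single-cell expression was measured in 4 libraries of cultured macrophages (2 B-MF, 2 Mo-MF) and chromatin accessibility in 12 libraries. The authors aligned reads with Cell Ranger, kept cells with at least 1000 genes and deposited SCTransform-corrected counts as the natural log of 1 plus the count. These were converted back to whole numbers (largest distance from a whole number 5.6e-11) for 15855 genes in 20798 cells. The correction evens out depth between cells, so these are not raw counts and no count model was used. The deposited ATAC-seq peak lists, called by the authors with MACS2 in each library after BWA alignment to mm10, hold fold enrichment as a ratio to background and -log10 q values as a score of each peak, and 43407 to 76530 peaks a list.

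Corrected counts were averaged per library and class, and log2 of the mean plus 0.1 was fitted with limma 3.58.1 in R 4.3.3 (library as a block, intensity trend, Benjamini-Hochberg adjustment, threshold 0.05) for 8607 genes, leaving out the 3 genes of the rule and those whose mean over the library-and-class values was under 0.1. Both classes of a library come from the same culture, which is where the pairing comes from. Named genes were the given markers, the 10 largest differences in each direction with the same sign in both B-MF libraries, the 5 largest in each direction between the cultures, and members of the gene lists. The members and lists were chosen with earlier results of these data known. On simulated data 90% to 94% of genes changed by 1 on the log2 scale were recovered, and 3.55% to 6.86% of calls had not been planted (8470 to 8488 genes in 3 simulations). The simulation gave every gene the same dispersion between cells and let no class difference vary between libraries. Its rates therefore need not hold for the real data, where genes such as Ppbp and Ifitm1 were very uneven between cells. Selected cells were clustered with Leiden (leidenalg 0.10.2, 2000 variable genes, 30 principal components, 15 neighbours, resolution 0.5). Doublets were not called. Shared barcodes were counted. Other pseudocounts, filters, scalings, thresholds and left-out libraries were tried as alternatives.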

Additional observations from a re-analysis of the deposited data

Results flagged for a closer look

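The following named genes had a difference between cells meeting the class II rule and other cells that was not the same in B-MF and Mo-MF, by the interaction term of the limma fit (adjusted p at most 0.05, log2, B-MF minus Mo-MF). This signed difference was 4.25 for Igkc, 3.45 for Ngp, 3.43 for Ppbp, 2.99 for Camp, 2.91 for Ifitm1, 2.61 for Iglc2 and 2.11 for Cd209a. It was 1.31 for both Plbd1 and Itgb7 and 0.62 for both Cd74 and Tmem176b. These values were not matched for class II counts, which were higher in the selected B-MF than in the Mo-MF meeting the rule. Ngp and Camp were at 0 in every B-MF class, so their values come from Mo-MF, and Igkc and Iglc2 rest on few cells. Cd209a and Iglc2 passed the filter on low means only through the selected B-MF, so a difference was fixed by the filter, and without it their differences within B-MF no longer passed the test. Without Mo-MF replicate 2 the value was 1.76 for Ngp and 1.71 for Camp, and without Mo-MF replicate 1 it was 5.14 and 4.28. Igkc was 1.77 and no longer passed the test without Mo-MF replicate 1, and it was 2.79 without B-MF replicate 1, 5.71 without B-MF replicate 2 and 6.73 without Mo-MF replicate 2. Igkc, Ngp and Camp also lost the call without the intensity trend or the block, Slpi and Saa3 without the trend, and no gene had a call between the cultures without the filter. The difference between the cultures was -1.63 for Slpi, -1.60 for Mgst1, -1.58 for Ephx1, -1.54 for Saa3, -1.37 for Maged1, -1.31 for Adgrl2, -1.09 for Cd81, -0.96 for Fabp3 and -0.89 for Pdzk1ip1. The causes were not tested, and cell of origin and library cannot be told apart.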

How the results depend on the processing

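The mean share of B-MF meeting the rule was 2.28% ± 0.54 (SD, n = 2), became 3.25% at 10 counts and 1.38% at 40, and was 1.90% to 2.65% with 1 library left out. Without the filter on low means, 91 genes were higher, 95 lower and 0 differed between the cultures by limma (2130 at an unadjusted p under 0.05). Without the intensity trend these counts were 226, 249 and 71. At 40 class II counts 217 differed between the cultures, against 494. With 1 library left out, 260 to 558 genes were higher, 357 to 629 lower and 318 to 426 differed between the cultures, with the lowest counts in each without B-MF replicate 2. Without the replicate block 416 genes were higher, 475 lower and 340 differed between the cultures. Sub-clusters numbered 2 at a resolution of 0.25 and 8 at 1. The 8 class II genes with a peak in all lists stayed 8 under both other peak rules, with no share over all gene starts to set beside them. Of 518 values for 27 named genes under the alternatives, 495 kept their direction and side of the threshold and 23 fell short of it, 14 of them without the filter. The planned comparison without cells holding 2 or more dendritic cell genes was not run, since it leaves 2 selected cells in each B-MF library. Such cells made up 98.6% and 98.0% of the selected B-MF and 98.1% and 97.0% of the other B-MF. Holding 2 or more of these genes thus did not separate the classes. The causes were not tested.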
